A study of Rattus norvegicus with 99 samples.

Results

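The genes described here are the tissue inhibitors of metalloproteinases Timp1, Timp2, Timp3 and Timp4, the matrix metalloproteinases Mmp2, Mmp14 and Mmp15, and the disintegrin metalloproteinase Adamts1. They were taken by gene symbol from a table of RNA levels in whole rat heart tissue. All 8 were found among its 17337 genes, had counts in all 99 libraries and passed the filter on low counts in every fit. Pressure overload had been induced in male F1 rats from female Wistar Kyoto and male Lewis parents, by a non-constricting clip around the pulmonary artery (PAB, which loads the right ventricle) or the aorta (AOB, which loads the left ventricle). At the stage of compensated hypertrophy (H) there were 7 Sham-H, 7 PAB-H and 7 AOB-H animals, killed 7 weeks after surgery at an age of 11 weeks. At the stage of heart failure (F) there were 2 Sham-RF and 3 PAB-F animals, killed 21 weeks after surgery at 27 weeks of age, and 3 Sham-LF and 4 AOB-F animals, killed 24 weeks after surgery at 30 weeks. The ages are those of the sample labels, and the study's text gives others. Each of the 33 animals gave 1 polyadenylated RNA library from the left ventricle (LV), the interventricular septum (Spt) and the right ventricle (RV), which makes 21 groups of condition and chamber. A group of 2 to 4 animals is a small model of a failing heart, and all animals were males of the same cross.

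Matrix metalloproteinases are zinc enzymes that cut collagens and other proteins of the extracellular matrix. The tissue inhibitors bind their active sites, so that the balance of enzyme and inhibitor is widely used as a measure of matrix turnover in the heart. Mmp2 is gelatinase A, a secreted enzyme that is made as an inactive precursor. Mmp14 and Mmp15 are anchored in the cell membrane, and Mmp14 activates the precursor of Mmp2 with Timp2 as the bridge between them. Timp3 is bound to the matrix and also inhibits enzymes of the ADAM and ADAMTS families, to which the secreted proteoglycan-cutting enzyme Adamts1 belongs. Timp4 is known for its high level in the heart.

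Promoter sequences are shown for Timp1, Timp2 and Timp4, the inhibitors with the largest differences in the failing LV. Each is the stretch of 250 bases before the annotated start (RefSeq, build GRCr8, minus strand), written 5′ to 3′ along the gene. Capitals mark the GC box GGGCGG or its reverse complement CCGCCC.
Timp1 (chrX:3771123-3771372): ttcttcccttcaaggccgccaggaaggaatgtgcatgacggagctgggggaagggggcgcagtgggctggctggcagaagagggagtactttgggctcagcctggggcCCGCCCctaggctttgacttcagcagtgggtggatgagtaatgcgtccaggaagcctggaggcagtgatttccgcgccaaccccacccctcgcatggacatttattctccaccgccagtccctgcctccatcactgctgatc
Timp2 (chr10:104089215-104089464): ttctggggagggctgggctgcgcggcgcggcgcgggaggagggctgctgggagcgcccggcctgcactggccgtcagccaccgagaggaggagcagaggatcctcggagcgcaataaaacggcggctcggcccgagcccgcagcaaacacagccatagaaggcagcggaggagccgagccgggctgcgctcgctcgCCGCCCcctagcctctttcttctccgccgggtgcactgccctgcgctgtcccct
Timp4 (chr4:149985205-149985454): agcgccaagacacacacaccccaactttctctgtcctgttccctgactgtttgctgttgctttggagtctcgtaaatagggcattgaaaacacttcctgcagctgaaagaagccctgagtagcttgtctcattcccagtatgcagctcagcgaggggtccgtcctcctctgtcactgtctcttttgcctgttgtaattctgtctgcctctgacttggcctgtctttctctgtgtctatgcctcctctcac
A GC box was present in the windows of Timp1 and Timp2 and absent from that of Timp4, and 32.4% of 27457 RefSeq promoter windows of this length held it on either strand. The exact AP-1 letters TGAGTCA, held by 3.98% of these windows on either strand, were found in none of the 6 members with a window in the table (Timp1, Timp2, Timp3, Timp4, Mmp15 and Adamts1). Variants of these letters, such as TGAGTAA in the Timp1 window, were not counted. The letters TATAAA, held by 13.1%, were found in Adamts1 alone of these 6. A match or its absence describes the letters of the window and nothing about binding.

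RNA levels are in CPM, read counts brought to a common library total, and tests are edgeR quasi-likelihood tests with Benjamini-Hochberg adjustment over all genes of a fit, where a gene with an adjusted p under 0.05 is called. Depth lay between 12.06 and 24.2 M counts per library, with a median of 17.39 M. The numbers of the libraries fall into 3 runs, called library series 1, 2 and 3. In 3 animals (Sham-H replicate 6, PAB-H replicate 2 and AOB-H replicate 1) the expression difference between the libraries labelled RV and LV was opposite to that of the other 30, with ratios of -1.01, -1.04 and -1.34 to the median of the other animals over 50 genes, and the labels were kept. Myocyte genes were high in all libraries, with a sum of 38832 to 97144 CPM over 6 ventricular myocyte markers. The fat cell marker Plin1 had 3 or fewer counts in 83 libraries, and Adipoq, Cidec, Lep and Car3 in 45 to 65. The atrial marker Bmp10 was that low in 87 libraries, but Sln in 1 and Myl7, Myl4 and Nppa in 0. The 5 atrial markers summed to 65.3 CPM in the lowest library (Sham-RF RV) and 17471 in the highest (AOB-F LV). In bulk tissue, fewer cells of a type and less RNA per cell cannot be told apart.

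Of the 4 inhibitors, Timp2 had the highest level per length. On the FPKM scale, which divides by gene length, its median over the 99 libraries was 157.5, followed by Timp3 (78.8), Timp4 (52.2) and Timp1 (20.0). Timp2 made up a median of 50.9% of the summed FPKM of the inhibitors, Timp3 25.6%, Timp4 16.8% and Timp1 6.21%. Among the proteases, the median FPKM was 60.6 for Mmp2, 25.8 for Mmp15, 17.1 for Adamts1 and 5.61 for Mmp14. Timp2 exceeded Mmp2 in FPKM in every library, with mean ratios from 2.33 in PAB-H Spt to 3.56 in PAB-F RV.

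**Figure D1:**
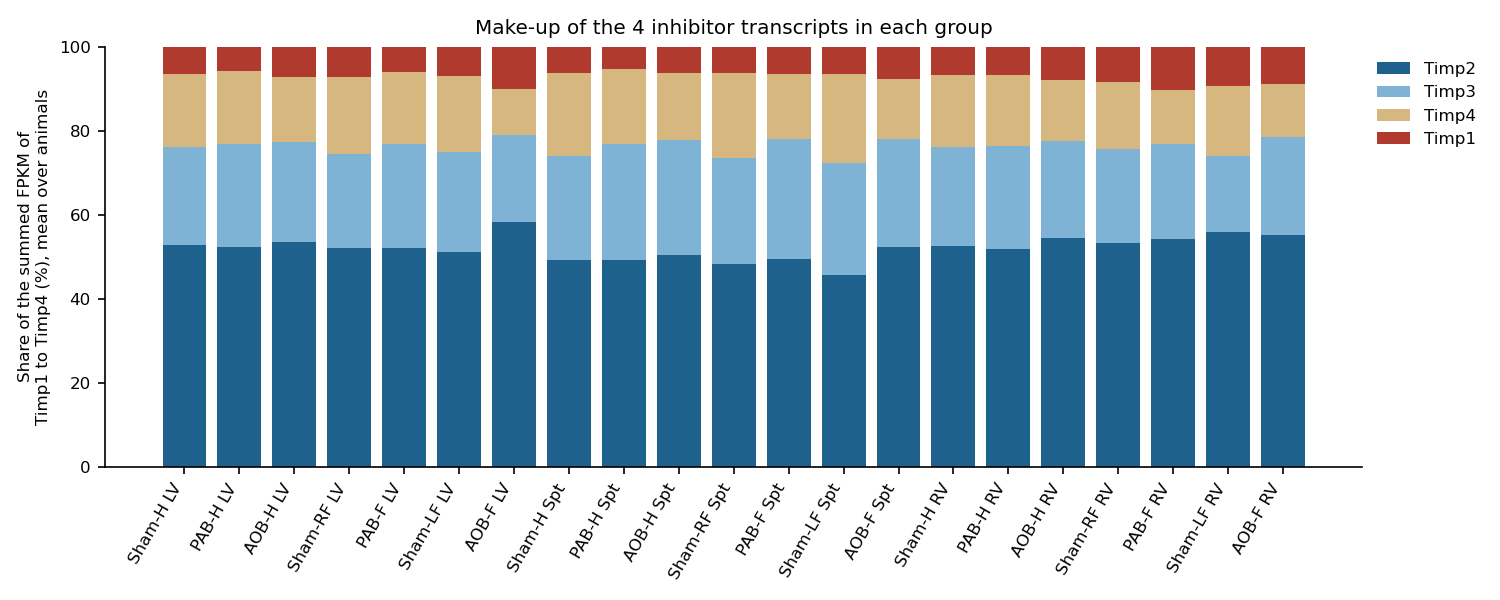
Stacked bars give the mean share of Timp2, Timp3, Timp4 and Timp1 in the summed FPKM of the 4 inhibitors (y axis, %) in each of the 21 groups (x axis). Timp2 is the largest share throughout. The Timp1 share is highest in PAB-F RV (10.2%) and AOB-F LV (10.1%), followed by Sham-LF RV (9.22%) and AOB-F RV (8.72%).

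In 20 of 20 pairs of neighbours in the order of mean CPM, the libraries of both groups overlapped for each member, except for Timp2 with 19 of 20. Timp1 had the widest range of group means, from 11.5 ± 2.18 CPM (SD, n = 7) in PAB-H Spt to 30.8 ± 15.1 (SD, n = 4) in AOB-F LV, followed by PAB-F RV at 25.7 ± 14.1 (SD, n = 3). Timp2 was also highest in AOB-F LV, at 390.2 ± 111 CPM (SD, n = 4), and lowest in Sham-LF Spt, at 217.5 ± 7.69 (SD, n = 3). Timp4 ran from 107.3 ± 5.50 CPM (SD, n = 2) in Sham-RF LV to 66 ± 32 (SD, n = 4) in AOB-F RV, with AOB-F LV as the group above it. Mmp15 had its lowest mean in AOB-F LV (82.4 ± 21.2 CPM, SD, n = 4) and its highest in Sham-H LV (115.7 ± 14.9, SD, n = 7). The remaining members spanned a ratio of highest to lowest group mean of 1.45 (Mmp2) to 1.80 (Adamts1).

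For Timp3 and Adamts1, the library series separated the libraries of the young animals further than any condition did. In LV, the 6 series 1 libraries held 55.7 to 81.8 CPM of Timp3 (median 69.5), while the 15 others held 136.5 to 191.5. In RV the 6 series 1 libraries held 53.2 to 74.9 CPM against 121.7 to 175.7 in the others. Neither chamber had any overlap between series 1 and the others, and each series 1 set held 2 animals of every condition. Adamts1 followed with 36.0 to 51.1 CPM in LV series 1 against 54.2 to 99.4 in the others, and with 37.7 to 51.6 against 52.4 to 110.2 in RV. Timp1 went the other way in its median, with 19.1 CPM in LV series 1 against 13.9 in series 2 and 12.3 in series 3, and here the ranges overlapped. No Spt library belongs to series 1, but the Spt library of Sham-H replicate 5 held 42.2 CPM of Timp3 and 40.2 of Adamts1, with 130.9 of Timp3 as the next lowest value of its group.

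**Figure D2:**
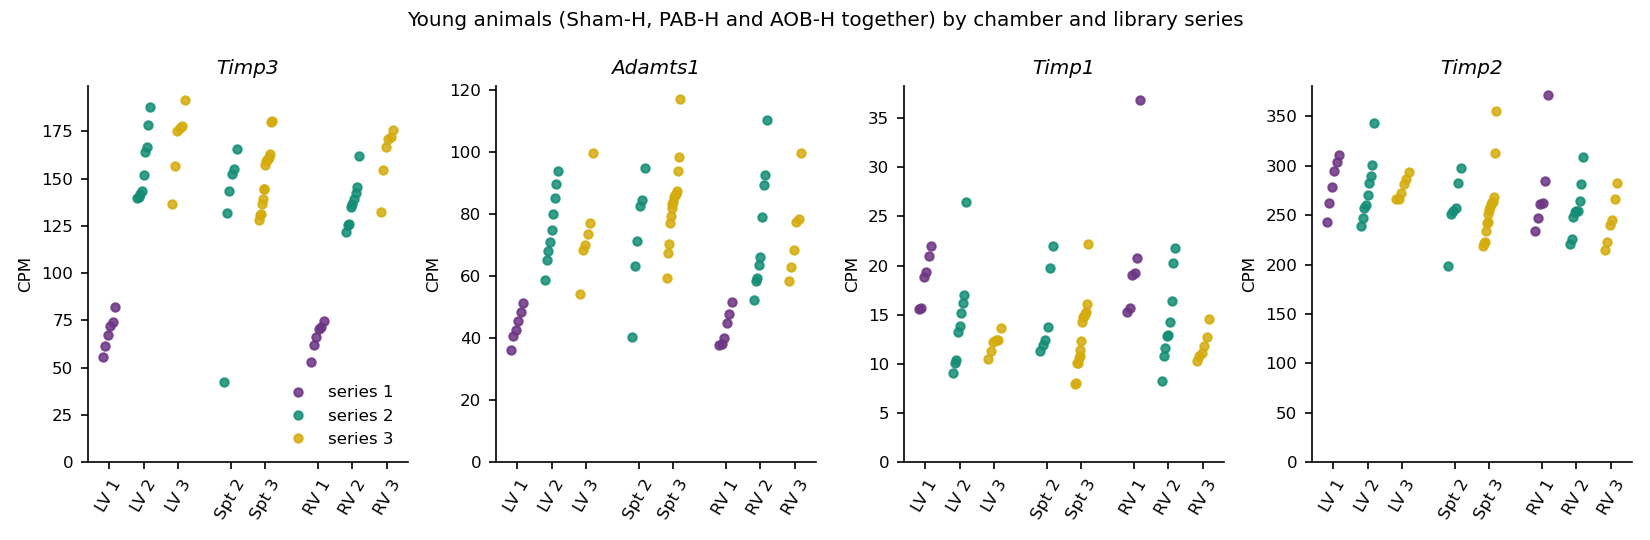
Points are single libraries of the young animals (Sham-H, PAB-H and AOB-H together), with CPM on the y axis and chamber and library series on the x axis. Series 1 libraries of Timp3 lie at 53.2 to 81.8 CPM, below all others but the low Spt library at 42.2, while Timp2 shows no such gap.

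In the failing LV after AOB, Timp2 was the only member called (adjusted p 0.0352), with Mmp2 next at 0.0708. Timp1 had the largest fitted change without passing the test. The comparison asks how the loaded ventricle differs from that of age-matched shams. The LV libraries of both groups belong to series 2. Of the 8 members 1 was called, beside 0.837% of 11703 genes, and 4 had an unadjusted p under 0.05, beside 12.7% of all genes. The groups did not overlap for 2 members, beside 11.9% of all genes.

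Timp2 measured 513.2, 313.0, 281.2 and 453.4 CPM in AOB-F replicates 1 to 4, and 259.5, 262.9 and 274.9 in Sham-LF. All 4 AOB-F libraries lay above all shams, with replicates 1 and 4 far above replicates 2 and 3. The fold change was 1.47 (log2 0.55 ± 0.13, SE, adjusted p 0.0352). The call held without AOB-F replicate 2 or 3, and was lost without any of the other 5 libraries (adjusted p up to 0.300), at log2 fold changes from 0.39 without AOB-F replicate 1 to 0.68 without AOB-F replicate 3. In a fit of series 2 alone the log2 fold change was 0.56 with an adjusted p of 0.0915, and in a fit of only these groups it was 0.56 with 0.352.

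Timp1 measured 39.5, 21.1, 15.2 and 47.2 CPM in the AOB-F libraries and 14.7, 18 and 15 in Sham-LF. AOB-F replicates 1, 2 and 4 lay above all shams and replicate 3 within their range. The fold change was 1.93 (log2 0.95 ± 0.31, SE, adjusted p 0.136), and it was called with library series as a term (adjusted p 0.0492) and without AOB-F replicate 3 (log2 1.17, adjusted p 0.0175). As a share of the summed inhibitor FPKM, Timp1 took 11.6%, 7.67%, 6.41% and 14.7% in AOB-F and 6.37%, 8.28% and 6.06% in Sham-LF. The share was higher than in any sham in AOB-F replicates 1 and 4.

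Timp4 measured 32.4, 109.9, 91.0 and 41.0 CPM in AOB-F and 96.8, 90.3 and 103.9 in Sham-LF. AOB-F replicates 1 and 4 lay below all shams, replicate 2 above them and replicate 3 among them. The log2 fold change of -0.50 ± 0.24 (SE) did not pass (adjusted p 0.371), and it ranged from -0.83 without AOB-F replicate 2 (adjusted p 0.0416) to -0.26 without AOB-F replicate 1, with adjusted p up to 0.921 when 1 library was left out. The summed level of 6 endothelial markers was 785.1 and 782.5 CPM in AOB-F replicates 1 and 4, 1169.5 and 1099.1 in replicates 2 and 3, and 951.8 to 1059.3 in the shams, and its part in the Timp4 values was not tested.

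Timp3 did not separate the groups, with 130.3 to 157.7 CPM in AOB-F and 102.0 to 153.4 in Sham-LF (log2 0.09 ± 0.36, SE, adjusted p 0.995).

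Mmp2 measured 224.2, 187.2, 189.8 and 226.9 CPM in AOB-F and 155.3, 153.1 and 163.3 in Sham-LF, so that all AOB-F libraries lay above all shams. Its log2 fold change was 0.40 ± 0.11 (SE, 1.32-fold) and missed the threshold with an adjusted p of 0.0708. It was called by DESeq2 (adjusted p 0.0280), with library series as a term (adjusted p 0.0420) and without AOB-F replicate 2 or 3. The AOB-F libraries were within the range of the young shams, which held 168.4 to 250.5 CPM. The membrane-bound enzymes did not pass, with log2 fold changes of 0.15 ± 0.17 (SE, adjusted p 0.865) for Mmp14 and -0.26 ± 0.15 (SE, adjusted p 0.495) for Mmp15. Mmp15 measured 71.85, 89.5, 108.3 and 59.8 CPM in AOB-F replicates 1 to 4, with 3 libraries below the 96.6 to 100.7 of the shams and 1 above, and its log2 change ranged from -0.42 without replicate 3 to -0.13 without replicate 4. Adamts1 was at 60.2 to 92.1 CPM in AOB-F and 66.5 to 73.6 in Sham-LF (log2 0.12 ± 0.27, SE, adjusted p 0.974).

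**Figure D3:**
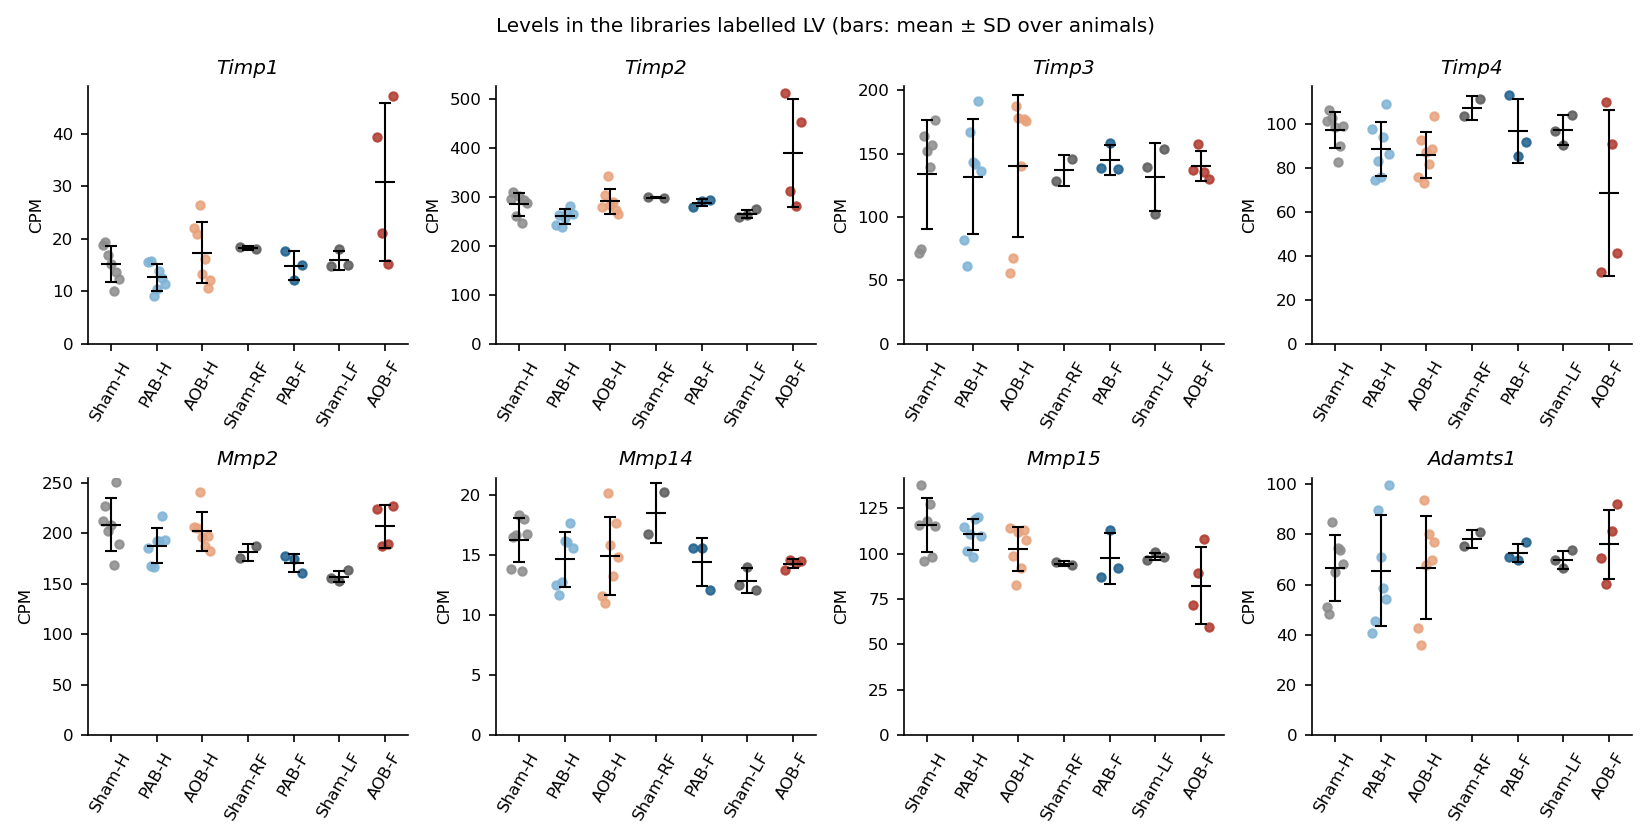
Each panel shows 1 gene in the libraries labelled LV, with CPM on the y axis (from 0), the 7 conditions on the x axis, 1 point per animal and black bars for mean ± SD. Timp2 and Timp1 reach 513.2 and 47.2 CPM in AOB-F, where Timp4 has its lowest points at 32.4 and 41.0.

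Marker genes of cell types were also compared in the same LV libraries. The summed level of 6 macrophage markers was 762.3, 420.0, 354.9 and 706.0 CPM in AOB-F replicates 1 to 4 and 273.6 to 369.3 in Sham-LF, and 5 of 6 markers had an unadjusted p under 0.05, with Lyz2 called. The 6 fibroblast markers summed to 2250 to 2755 CPM against 1909 to 2059, with Postn called. Of the 5 fat cell markers 4 had an unadjusted p under 0.05 and 0 were called, with a summed level of 0.536 to 22.9 CPM against 0.556 to 1.04. All 5 were near the floor, with medians over all libraries from 0 (Plin1) to 0.281 CPM (Car3). The 6 ventricular myocyte markers summed to 38832 to 55272 CPM against 56167 to 72770. The 5 atrial myocyte markers summed to 2222 to 17471 CPM against 613.3 to 849.7, with the natriuretic peptide gene Nppa called at a log2 fold change of 3.73 (adjusted p 0.0472). The median log2 fold change of these 5 was 3.09, and only Nppa had an unadjusted p under 0.05. Nppa led the list in level, with a median of 715.7 CPM over all libraries against 10.4 for Myl7, the next highest. The study uses Nppa as a marker of heart failure and found its RNA in ventricles, so this sum does not mark atrial cells alone. The sums of fibroblast, ventricular myocyte and atrial myocyte markers did not overlap between the groups, the last of these in a list led by Nppa. The part of cell types in the values of Timp1, Timp2 and Mmp2 was not tested.

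Other genes of matrix turnover were compared in the failing LV by lists, and the median log2 fold change of all 11703 genes was 0.01. Of 19 other matrix metalloproteinases 8 were tested, with a median of 0.36, and 0 were called. The 5 that averaged 1 CPM or more in LV (Mmp11, Mmp17, Mmp19, Mmp23 and Mmp28) had fitted values from 0.10 to 0.43, with Mmp23 at 15.4 to 21.9 CPM against 12.4 to 14.3 in the shams (adjusted p 0.448). Of 18 other ADAMTS enzymes 11 were tested, with a median of 0.01, and 0 were called. The 8 at that level (Adamts2, Adamts5, Adamts7, Adamts9, Adamts10, Adamts12, Adamts15 and Adamts19) ranged from -0.71 in Adamts12 to 0.32 in Adamts10, with adjusted p of 0.279 or more. Of 9 ADAM sheddases 5 were tested and 0 called. Among 15 tested activators and other inhibitors, Serpine2, a serine protease inhibitor that blocks plasminogen activators, was called with a log2 fold change of 1.32 ± 0.26 (SE, adjusted p 0.0292). Among 11 tested matrix proteins, the proteoglycan gene Bgn was called at 1.25 ± 0.26 (SE, adjusted p 0.0320), 7 had an unadjusted p under 0.05, and their median was 0.39.

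In the Spt of the same animals, 0 of 8 members were called, beside 0.232% of 11624 genes, and 2 had an unadjusted p under 0.05, beside 12.2%. By DESeq2 0 were called as well. The groups did not overlap for 1 member, beside 9.76%. Timp2 measured 327.5, 234.1, 327.1 and 234.1 CPM in AOB-F and 225.5, 216.7 and 210.2 in Sham-LF, all 4 above all shams, with a log2 fold change of 0.35 ± 0.13 (SE, adjusted p 0.256). Timp4 measured 52.4, 121.7, 48.7 and 89.9 CPM in AOB-F and 140.3, 90.0 and 87.9 in Sham-LF, at a log2 fold change of -0.46 ± 0.22 (SE, adjusted p 0.384). The Spt libraries that were high in Timp2 and low in Timp4 were those of replicates 1 and 3, while in LV they were those of replicates 1 and 4. Replicates 1 and 3 also held the higher macrophage sums in Spt (429.9 and 431.1 CPM, against 257.3 and 238.8), whose part in these values was not tested. For Spt, the titles and the study's own sample sheet disagree on which column belongs to AOB-F replicate 1 and which to replicate 2, and the titles were followed. Timp1 was 13.1 to 23.4 CPM in AOB-F and 9.69 to 19.3 in Sham-LF (log2 0.37 ± 0.28, SE, adjusted p 0.656).

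In the RV after AOB, a chamber that the band does not load directly, 0 of 8 members were called, beside 0% of 11734 genes, 0 had an unadjusted p under 0.05, beside 12.9%, and DESeq2 called 0. The groups did not overlap for 1 member, beside 9.87%. This was Adamts1, with 95.7, 66.1, 77.6 and 98.6 CPM in AOB-F against 53.7, 46.0 and 65.8 in Sham-LF (log2 0.62 ± 0.30, SE, adjusted p 0.389). Timp3 measured 132.5, 153.5, 100.4 and 135.1 CPM in AOB-F and 77.6, 66.2 and 121.6 in Sham-LF (log2 0.56 ± 0.36, SE, adjusted p 0.474). Sham-LF replicates 1 and 2 were low in both genes among the older RV libraries. The sample description of Sham-LF replicate 1 in RV names a column of the PAB shams, and the column that fits its title was used. Timp4 was again low in AOB-F replicates 1 and 4, at 39.7 and 38.5 CPM, and was 102.1 and 83.7 in replicates 2 and 3 and 69.8 to 100.9 in the shams (log2 -0.28 ± 0.26, SE, adjusted p 0.604). Without AOB-F replicate 2 the log2 value was -0.58, and without Sham-LF replicate 1 it was -0.10. In the same RV libraries the macrophage markers summed to 449.8 and 391.9 CPM in AOB-F replicates 1 and 4, 236.2 and 219.0 in replicates 2 and 3, and 212.3 to 311.5 in the shams. The ventricular myocyte markers summed to 47816 and 51371 CPM in replicates 1 and 4, 76137 and 76629 in replicates 2 and 3, and 72475 to 88100 in the shams. The part of these cells in the RV values was not tested. Timp1 and Timp2 differed by 0.10 ± 0.37 and 0.14 ± 0.14 (log2, SE) and did not pass.

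The difference between the LV and RV responses to AOB was tested directly, in a fit of all 99 libraries. Of 8 members 0 were called, beside 0% of 11924 genes, and 2 had an unadjusted p under 0.05, beside 2.40%. The LV response exceeded that of RV by 0.41 ± 0.19 in Timp2, 0.39 ± 0.16 in Mmp2 and 0.85 ± 0.47 in Timp1 (log2, SE), each with an adjusted p of 0.926. DESeq2 called 0 as well.

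In the failing RV after PAB, 0 of 8 members were called, beside 0% of 11734 genes, and 0 had an unadjusted p under 0.05, beside 8.37%. DESeq2 called 0. With 3 animals against 2, the groups did not overlap for 3 members (Timp3, Mmp2 and Adamts1), beside 35.4% of all genes. Timp1 measured 13.0, 40.9 and 23.1 CPM in PAB-F and 16.9 and 18.5 in Sham-RF. Its share of the summed inhibitor FPKM was 6.07%, 15.1% and 9.41% in PAB-F and 7.34% and 9.15% in Sham-RF. PAB-F replicate 2 was the highest RV library of all conditions for Timp1 and replicate 1 lay below the shams, with a log2 fold change of 0.53 ± 0.44 (SE, adjusted p 0.745) and 0.04 without replicate 2. Timp2 measured 231.1, 328.9 and 332.5 CPM in PAB-F and 269.5 and 246.5 in Sham-RF (log2 0.20 ± 0.17, SE, adjusted p 0.748). PAB-F replicates 2 and 3 lay above both shams and replicate 1 below them. Timp4 measured 94.6, 63.6 and 51.1 CPM against 95.4 and 66.6 (log2 -0.22 ± 0.31, SE, adjusted p 0.846). The macrophage markers summed to 200.9, 502.9 and 400.8 CPM in PAB-F replicates 1 to 3 and 262.4 and 278.0 in Sham-RF. The endothelial markers summed to 1134, 847.9 and 706.3 CPM against 1069 and 844.3. The ventricular myocyte markers summed to 68164, 56742 and 54819 CPM against 73090 and 73719, and the fibroblast markers to 1373, 1728 and 2036 against 1868 and 1805. The part of these cells in the values of Timp1, Timp2 and Timp4 was not tested.

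Among the proteases of the failing RV, Mmp2 measured 137.9, 161.1 and 157.3 CPM in PAB-F and 183.9 and 169.6 in Sham-RF (log2 -0.22 ± 0.15, SE, adjusted p 0.692). Adamts1 measured 60.5, 61.6 and 75.1 CPM against 98.7 and 76.9 (log2 -0.42 ± 0.35, SE, adjusted p 0.747). Both were lower in all PAB-F libraries than in the shams. The lists of 10 tested other metalloproteinases, 10 other ADAMTS enzymes, 5 ADAM sheddases, 15 activators and other inhibitors and 11 matrix proteins had 0 called genes. Adamts7, a metalloproteinase that cuts cartilage oligomeric matrix protein, was at 33.3 to 42.0 CPM in PAB-F and 50.8 to 56.9 in Sham-RF (log2 -0.57 ± 0.20, SE, adjusted p 0.524). Metalloproteinases that averaged 1 CPM or more in RV (Mmp11, Mmp17, Mmp19, Mmp23, Mmp24 and Mmp28) ranged from -0.44 to 0.58, and the other ADAMTS genes at that level (Adamts2, Adamts5, Adamts9, Adamts10, Adamts12, Adamts15 and Adamts19) from -0.58 to 0.55.

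In the LV of PAB-F animals 0 of 8 members were called, beside 0%, and 0 had an unadjusted p under 0.05, beside 1.04%. The groups did not overlap for 3 (Timp1, Timp2 and Mmp14), beside 18.5%. In their Spt 0 were called, beside 0%, 0 had an unadjusted p under 0.05, beside 4.14%, and the groups did not overlap for 1, beside 42.7%. DESeq2 called 0 in both. The largest differences were -0.36 ± 0.20 for Mmp14 in LV (12.1 to 15.6 CPM against 16.7 and 20.3) and -0.37 ± 0.26 for Timp4 in Spt (74.4 to 85.9 CPM against 102.1 and 102.6), with adjusted p of 1.00 and 0.816 (log2, SE). The difference between the RV and LV responses to PAB was called for 0 of 8, beside 0%, with 0 at an unadjusted p under 0.05, beside 4.89%. That of Timp1 was 0.83 ± 0.56 (log2, SE, adjusted p 0.999).

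**Figure D4:**
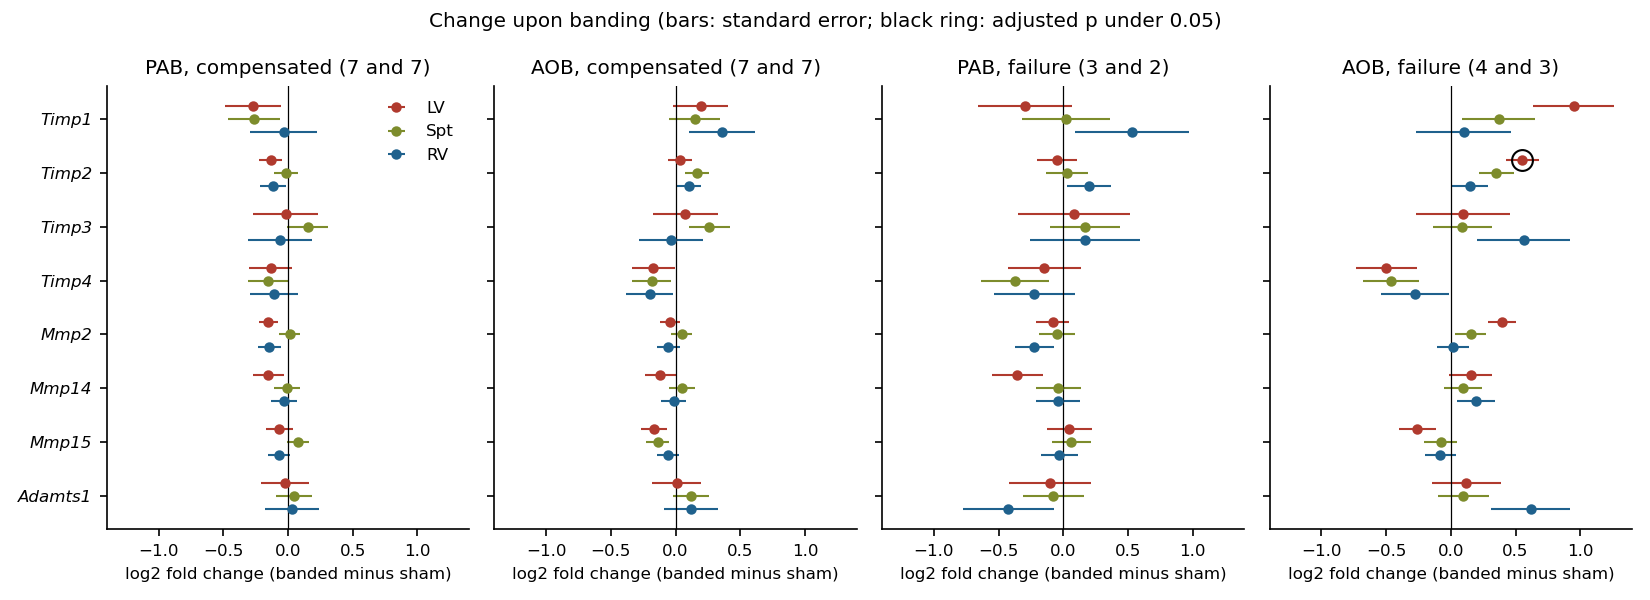
Log2 fold changes of banded minus sham (x axis) with standard errors are shown for the 8 genes (y axis) in 4 panels of band and stage, by chamber, with the numbers of banded and sham animals in the panel titles. The black ring marks Timp2 in the failing LV at 0.55, the only called value, and Timp4 lies at -0.50 to -0.11.

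At the compensated stage, with 7 animals against 7, 0 of 8 members were called in any chamber upon either band, beside 0% of genes in all 6 comparisons, and DESeq2 called 0 in each. No member had an unadjusted p under 0.05. The share of all genes at that level was 4.54% in LV, 15.9% in Spt and 0.937% in RV upon AOB, and 4.72%, 4.44% and 1.26% upon PAB. Fitted changes ran from -0.27 ± 0.21 in Timp1 of LV upon PAB to 0.36 ± 0.26 in Timp1 of RV upon AOB (log2, SE). The latter was 0.08 without AOB-H replicate 1, which held 36.8 CPM and is 1 of the 3 animals of opposite LV and RV. In the loaded LV upon AOB, Timp2 had a lowest, median and highest value of 266.0, 282.7 and 343.6 CPM, against 246.7, 293.2 and 310.9 in Sham-H (log2 0.03 ± 0.09, SE, adjusted p 0.969). Mmp2 had 182.3, 197.4 and 240.7 CPM against 168.4, 208.8 and 250.5 (log2 -0.04 ± 0.08, SE, adjusted p 0.958). Both pairs of groups overlapped over nearly their whole range. In the loaded RV upon PAB, Timp2 had 214.5, 245.0 and 263.9 CPM against 234.4, 253.8 and 284.1 (log2 -0.12 ± 0.10, SE, adjusted p 1.00).

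Timp4 had a fitted change from -0.20 ± 0.18 to -0.11 ± 0.18 (log2, SE) in the compensated comparisons, none of them called. These comparisons share the Sham-H animals within a chamber, and the chambers share animals.

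Whether AOB acted otherwise in failure than in compensation was tested as an interaction in LV. Of 8 members 0 were called, beside 0%, and 2 had an unadjusted p under 0.05, beside 7.60%. The difference was 0.52 ± 0.16 in Timp2 and 0.44 ± 0.13 in Mmp2 (log2, SE), both with an adjusted p of 0.462, and 0.76 ± 0.37 in Timp1 (adjusted p 0.665). For PAB in RV, 0 were called, beside 0%, and 0 had an unadjusted p under 0.05, beside 2.67%. DESeq2 called 0 in both. The values there were 0.56 ± 0.51 for Timp1 and -0.46 ± 0.41 for Adamts1 (log2, SE), each with an adjusted p of 1.00.

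Among shams, Mmp2 was lower in the 5 older animals than in the 7 young ones, a difference that passed the test in Spt. The groups of older shams also had a longer time since surgery. By the labels, they were 6 weeks old at surgery and Sham-H animals 4 weeks. Age, time after surgery and age at surgery thus cannot be told apart. In Spt, Mmp2 had 134.8, 150.5 and 156.7 CPM (lowest, median and highest) in older and 148.1, 195.2 and 230.7 in young shams. The ranges overlapped through the Sham-H replicate 5 library at 148.1, which was also the one with low Timp3. The log2 difference was -0.39 ± 0.09 (SE, adjusted p 0.0362), and within library series 3 it was -0.45 (adjusted p 0.00793). It was lost with library series as a term (adjusted p 0.0557), and without the 3 animals of opposite LV and RV (adjusted p 0.0866). Leaving out each animal in turn, it was called in 5 of 12 fits, with -0.44 as the value without Sham-H replicate 5 and -0.34 without replicate 2 of that group. In Spt 1 of 8 members was called, beside 1.18% of genes, and 2 had an unadjusted p under 0.05, beside 18.5%.

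In LV, older shams had 153.1, 163.3 and 187.1 CPM of Mmp2 (lowest, median and highest) and young shams 168.4, 208.8 and 250.5, with 3 of 5 older animals below all young ones. The difference of -0.33 ± 0.08 (log2, SE) had an adjusted p of 0.206, and within series 2 it was -0.22 (adjusted p 0.719). DESeq2 called it (adjusted p 0.0455). In RV the values were 133.9, 169.6 and 188.1 against 164.6, 201.0 and 220.4 (log2 -0.21 ± 0.10, SE, adjusted p 0.402). In LV 0 members were called, beside 0.0171%, and 2 had an unadjusted p under 0.05, beside 6.85%. In RV 0 were called, beside 0.0937%, by edgeR and by DESeq2, and 2 had an unadjusted p under 0.05, beside 11.7%. The second of these was Mmp15 in both, at -0.26 ± 0.11 in LV and -0.24 ± 0.09 in RV (log2, SE, adjusted p 0.625 and 0.330).

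In RV, Timp3 had a log2 difference of -0.37 ± 0.27 (SE, adjusted p 0.571) between older and young shams. With library series as a term it was -0.50 ± 0.13 (SE) and was called (adjusted p 0.0406). Within series 2 it was -0.52 and was not called (adjusted p 0.174), and with the replicate number as a block the sign turned, at 0.18 (adjusted p 0.733).

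The fibrillar collagen genes Col1a1 and Col3a1 were lower in Spt and RV of older shams. Both were called in Spt, at -0.89 and -1.04 (log2), and in RV, at -0.89 and -0.83, out of 11 tested matrix proteins with a median of -0.23 in Spt and -0.20 in RV, where the medians of all genes were -0.03 and -0.01. In LV 0 of the 11 matrix proteins were called and 6 had an unadjusted p under 0.05, with a median of -0.06. Adamts2, which processes procollagens, was called in Spt at -0.38 (adjusted p 0.0469). The summed fibroblast markers, a list that includes Col1a1, were 1332 to 1756 CPM in older and 1529 to 2382 in young Spt shams, and their part in the Mmp2 difference was not tested. The Timp genes did not pass in any chamber, with adjusted p of 0.481 or more.

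Between the chambers of the 12 shams, Mmp14 was lower in RV than in LV. It had 10.1, 13.0 and 17.1 CPM in RV (lowest, median and highest) and 12.1, 16.6 and 20.3 in LV. By the labels, RV was lower in 12 of 12 animals although the ranges overlapped. The 12 include Sham-H replicate 6, 1 of the 3 animals of opposite LV and RV. The log2 difference was -0.25 ± 0.08 (SE, adjusted p 0.0354). With the animal as a block it was -0.25 with an adjusted p of 0.0147, and without the 3 animals of opposite LV and RV it was -0.26 with 0.0142. Both libraries of an animal come from the same series, and with series as a term the adjusted p was 0.0103. In fits that left out 1 animal at a time the value lay between -0.29 and -0.21, with adjusted p from 0.0191 to 0.137 and a call in 4 of 12. In all 1 of 8 members was called, beside 10.2% of 11924 genes, and 1 had an unadjusted p under 0.05, beside 26.8%.

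Between RV and LV, 7 genes of the protease, activator and matrix lists were called. The 5 largest changes among these, markers of cell types aside, were the proteoglycan-cutting Adamts5 (-0.61), the plasminogen activator gene Plau (-0.58), the basement membrane collagen Col4a1 (-0.49) and the sheddase Adam15 (-0.41), all lower in RV, and Adamts7 (0.31), which was higher (log2). Of the 6 macrophage markers 3 were called as lower in RV, with 195.0 to 311.5 CPM summed in RV shams and 219.6 to 389.9 in LV shams. Of the 4 tested mesothelial markers, which mark the surface layer of the heart, 3 were called as higher (Msln, Upk1b and Krt19), with sums of 25.1 to 132.4 CPM in RV and 21.8 to 72.6 in LV. Their part in the Mmp14 difference was not tested.

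In Spt, Timp2 had 198.7, 238.2 and 297.6 CPM (lowest, median and highest), against 246.7, 290.0 and 310.9 in LV, and Spt was lower in 11 of 12 shams. The exception was Sham-H replicate 5. The log2 difference was -0.24 ± 0.07 (SE, adjusted p 0.0591), and with the animal as a block it was called (adjusted p 0.00874). Mmp14 was also lower in Spt in 11 of 12 shams (log2 -0.22 ± 0.08, SE, adjusted p 0.152), and was called with library series as a term (-0.31, adjusted p 0.0103). The LV and Spt libraries of an animal mostly come from different series, so that chamber and series are partly mixed here. Without the block 0 of 8 members were called, beside 2.32% of genes, and 3 had an unadjusted p under 0.05, beside 14%. DESeq2 called 1, Timp2. Of the lists, Mmp19, Adamts2, Thbs2, Col1a1 and Col3a1 were called as lower in Spt, from -0.48 to -0.25 (log2), with 3 of 6 macrophage and 3 of 6 fibroblast markers.

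**Figure D5:**
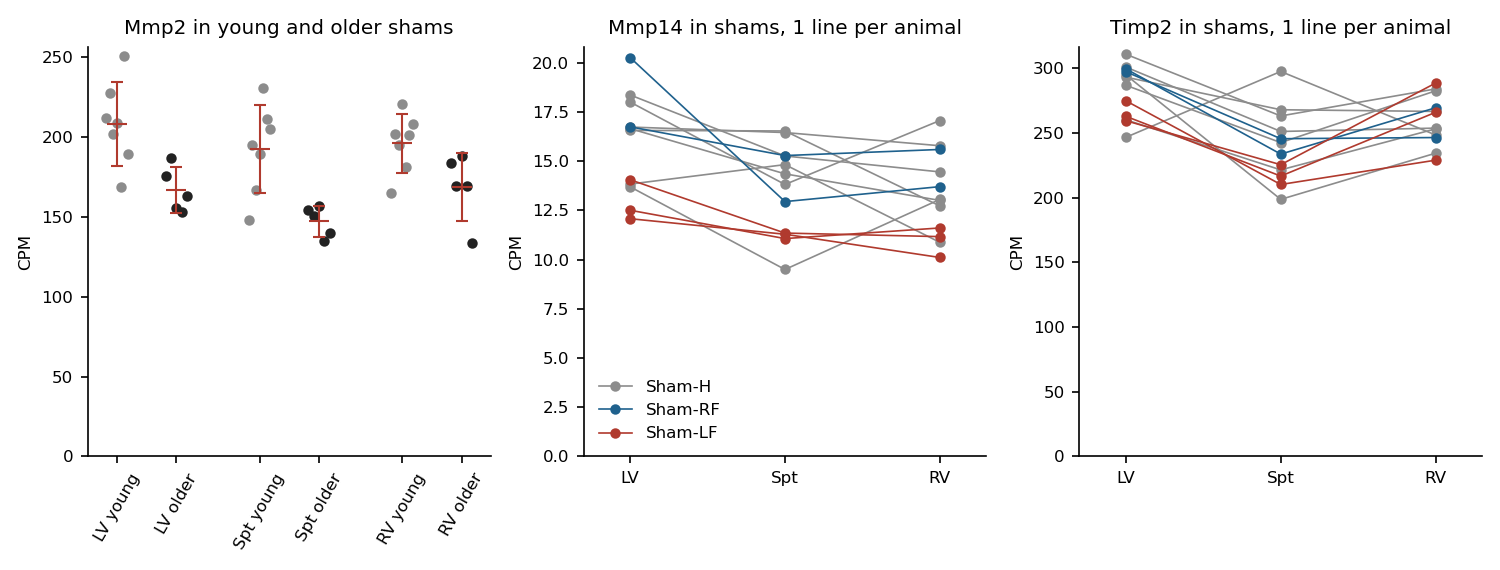
The left panel shows Mmp2 in CPM for young (grey) and older (black) shams in each chamber, with mean ± SD in red, and the other panels show Mmp14 and Timp2 in CPM with 1 line per sham animal over LV, Spt and RV. Older Spt libraries of Mmp2 lie at 134.8 to 156.7 CPM, and all 12 lines of Mmp14 fall from LV to RV as labelled.

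The genes whose 21 group means of log2 CPM were most like those of each member are given as a description, since the groups share animals, chambers and library series. Among them were Igfbp6 (Pearson's r 0.94) for Timp1, Gpx3 (0.96) and Lrp1 (0.96) for Timp2, and Picalm (0.97) and Epas1 (0.97) for Timp3. For Timp4 they were Car4 (0.96), a carbonic anhydrase of capillary walls, and Cox4i2 (0.95). For Mmp2 they were the collagen gene Col5a2 (0.92) and Pdgfrl (0.92), for Mmp14 Dclre1b (0.88) and Amph (0.85), for Mmp15 Gtpbp3 (0.90) and Asb10 (0.90), and for Adamts1 Notch1 (0.91) and Plcg1 (0.91). Among the members themselves, Timp1 was most like Timp2 (r 0.79) and most unlike Mmp15 (r -0.78) over the 21 group means.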

How the data were processed

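Whole-heart RNA was measured in 99 libraries of 33 rats. According to the study's methods, polyadenylated RNA was made into directional libraries and sequenced as single-end reads, which were trimmed with Trim Galore and mapped with STAR to rat Rnor6.0 with the UCSC annotation. The authors deposited raw counts per gene, made with featureCounts without multiple overlaps. The use of strand in counting is not given in the sources used here. The deposited normalized counts, a signal that the authors made with DESeq2 by dividing the counts by 1 size factor per library, were checked but not tested. The deposited FPKM values, made by the authors from the normalized counts and gene length, were used to compare levels between genes.

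Tests used the counts. Genes were filtered with filterByExpr, scaled by TMM and tested by edgeR 4.0.16 (quasi-likelihood, R 4.3.3, limma 3.58.1), with adjusted p under 0.05 as a call. Banding, age and stage were fitted per chamber over 33 libraries of 7 conditions, and chambers and responses by chamber over all 99 libraries. CPM used TMM-scaled totals. Animals are the replicates within a group. In the fits per chamber, the spread was estimated over all 7 conditions and not from the groups compared alone. The main fit of all 99 libraries treated the chambers of an animal as independent, and only the animal block took their pairing into account. Alternatives were DESeq2 1.42.0, RLE scaling, no filter, library series as a term or alone, a replicate or animal block, fewer or all groups, and leaving out animals. The edgeR fit was also run on simulated LV counts with known changes between AOB-F and Sham-LF. Only this comparison was simulated, without effects of animal or library series.

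The members and lists were chosen with earlier results of these data known. Named besides the members were, per comparison, up to the 5 largest called genes of the lists, the other metalloproteinases and ADAMTS genes averaging 1 CPM or more in the failing ventricles, and the 2 genes most like each member over group means. For Timp1, 1 of these is not reported here. The tissue field of RV samples names LV, and titles were followed. Promoter windows were taken from RefSeq for 6 of 8 members.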

Additional observations from a re-analysis of the deposited data

Results flagged for a closer look

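In 4 of 96 groups of 4 to 7 libraries examined (8 members), the highest or lowest library stood apart from the rest by Dixon's test, where chance gives about 1 in 20. In RV of AOB-H, Timp1 was 36.83 CPM in replicate 1 and 21.78 in the next highest library. In this animal the expression difference between RV and LV was opposite to that of 30 other animals. In LV of AOB-H, Mmp2 was 240.7 CPM in replicate 3 and 206.2 in the next. The Spt library of Sham-H replicate 5 stood apart for 2 genes, with Timp3 at 42.23 CPM against 130.9 in the next lowest and Mmp14 at 9.499 CPM against 13.82.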

How the results depend on the processing

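Of 1456 values of single members under alternatives, 1360 kept their direction and side of the threshold, 6 lost the call, 10 gained it, 0 reversed a call, and 80 changed sign without being called. For AOB in the failing LV, 1 member was called. DESeq2 called 2 and the series term 3, while 0 were called with the replicate block (Timp2 at 0.52, adjusted p 0.0930), in series 2 alone and with only the 2 groups compared, and leaving out 1 animal gave 0 to 3. For older shams, LV gave 1 by DESeq2 and 1 with the replicate block (Mmp2, adjusted p 0.0339) in place of 0, and RV gave 1 with the series term (Timp3) in place of 0. Spt gave 0 with the series term, 0 with the replicate block (Mmp2, adjusted p 0.0524) and 0 without the 3 animals of opposite LV and RV in place of 1, and 0 to 2 when 1 animal was left out. For PAB in the failing Spt, only the 2 groups compared gave 1 (Timp4, adjusted p 0.0217) in place of 0. Leaving out 1 animal gave 0 to 1 for RV against LV. Spt against LV gave 1 by DESeq2, 1 with the series term, 1 with the animal as a block and 0 to 1 with an animal left out, in place of 0. The cause of these changes was not tested. The Timp1 share of the summed inhibitors in failing LV was 4.73% from CPM in place of 10.1% from FPKM, since CPM is not divided by gene length. The labels do not say that a replicate number pairs animals of different groups, but same-numbered compensated animals share their library series in each chamber. Of their 7 pairs, 6 correlated over 0.1 in LV and RV (up to 0.87) and 1 to 3 in Spt, so the block also takes up part of the series. The block changed no other count. Groups of 2 to 4 failing animals limit what could be called.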
